A study of Rattus norvegicus with 9 samples.

Results

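The collagens of the rat amygdala were followed in ovariectomised females of the spontaneously hypertensive strain SHR, given estradiol or not. Members were all non-control probes on the array whose gene name is Col, digits, a and digits, which gave 81 probes of 44 genes among 45598 probes on the array. The OV+E2 group held 5 SHR females whose ovaries were removed at 4 weeks of age and which, after 1 week of recovery, carried an Alzet minipump with estradiol in PEG (0.33 mg/ml, 2 µg per day) until death at 9 weeks. The OV group held 4 SHR females of the same age and surgery whose pump held PEG alone, so all 9 rats lacked ovaries and all carried the hypertensive strain's inbred background. One operator dissected the amygdala of both sides from each brain, and RNA of 1 rat was hybridised to 1 array in 1 colour (Cy3). No intact rats and no normotensive strain were among these arrays.

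Collagens are secreted proteins whose chains wind into triple helices, and each helix needs a glycine at each turn of its repeat of 3 residues. Fibrillar collagens assemble outside the cell into the banded fibres of connective tissue, which in brain lie mainly in the meninges and the walls of larger vessels. Type IV collagens form the network of basement membranes, which in brain surround the capillaries. Other collagens decorate fibrils, build fine beaded filaments, or sit in the cell membrane, and some of these are made by neurons.

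The triple helix can be read in some of the 60-base probes. In a helix a glycine codon (GGN) starts every 9 bases, and 6 of the 81 collagen probes carried that pattern throughout, against 8 of all 45598 probes. In the first 3 sequences, from tested probes with the pattern, capitals mark the glycine codons. The other 3 are probes of Col20a1, Col3a1 and Col4a5 on which results below turn, and they do not carry the pattern. Coordinates follow rat build rn4, which the file headers name, strands are as listed, and a span of over 60 bases means that the probe crosses a splice junction.
Col20a1, chr3:170132592-170133066, plus strand: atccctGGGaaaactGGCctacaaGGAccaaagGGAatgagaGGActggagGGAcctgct
Col11a2, chr20:4936632-4936946, minus strand: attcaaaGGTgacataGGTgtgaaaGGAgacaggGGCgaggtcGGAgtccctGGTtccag
Col4a6, chrX:37482127-37482186, plus strand: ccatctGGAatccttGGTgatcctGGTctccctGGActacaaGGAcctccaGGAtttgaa
Col20a1, chr3:170127106-170127165, plus strand: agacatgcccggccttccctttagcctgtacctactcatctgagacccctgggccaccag
Col3a1, chr9:44317465-44317524, plus strand: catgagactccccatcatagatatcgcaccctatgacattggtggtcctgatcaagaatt
Col4a5, chrX:36919794-36919853, minus strand: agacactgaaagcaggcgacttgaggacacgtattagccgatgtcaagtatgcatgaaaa

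Each signal is given relative to its array, as a multiple of the array's 75th percentile over non-control probes, and differences are OV+E2 minus OV on the log2 scale with the standard error (SE) of the limma fit. Of the 81 collagen probes, 56 of 37 genes reached a signal well above background on 4 or more of the 9 arrays and were tested. The other 25 probes reached that level on at most 3 arrays, 15 of them on none. They include every probe of Col10a1, Col14a1, Col17a1, Col24a1, Col28a1, Col4a3 and Col6a4, and further probes of Col12a1, Col22a1, Col23a1, Col25a1, Col26a1, Col4a5, Col4a6, Col6a3, Col6a5, Col6a6 and Col8a2. No collagen probe was saturated on any array. Of the tested probes, 4 (Col4a4, Col6a6, Col19a1 at base 6166 and Col6a2 at base 3980) were well above background in 3 or more OV+E2 rats but in only OV replicate 5 of the OV group. They passed the filter mainly through OV+E2 rats, and their differences are taken against OV signals near background.

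One array stands apart. OV replicate 3 had a 75th percentile of 129.7, against 556.8 to 737.6 on the other 8 arrays, and 24225 probes well above background, against 29052 to 31395. Its mean correlation with the other arrays was 0.947, while the others lay between 0.980 and 0.983. The authors' own processed values for this rat correlated at 0.939 with its deposited scan, where each of the other 8 arrays reached over 0.999. Of the tested collagen probes, 17 had their highest and 9 their lowest signal on this array, and differences without it are therefore given beside those over 9 arrays. The arrays lay on slide 1 (OV+E2 1 and 2, OV 1, 2 and 3) and slide 2 (OV+E2 3, 4 and 5, OV 5), and values within each slide stand beside the results. Every slide 2 value rests on OV replicate 5 as the only OV rat. Neuronal markers of the amygdala (16 of a list of 18) passed the same filter, while Rspo2 and Tac2 were not tested.

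No collagen probe passed an adjusted p of 0.05 in the limma comparison of OV+E2 with OV, with Benjamini-Hochberg adjustment over the 30215 probes tested, and no probe of the whole array did in this fit (0 called in either direction). In the authors' values 46 probes of the whole array were lower at that threshold (0.153%) and 23 higher (0.0767%), with 0 collagens among them and a smallest adjusted p of a collagen (limma) of 0.0520, for Col6a2 at base 3980. The smallest adjusted p of a collagen was 0.251 over 9 arrays and 0.145 without OV replicate 3. At an unadjusted p under 0.05, 7 of 56 collagen probes were lower in OV+E2 rats, against 7.17% of all tested probes, and 1 was higher, against 3.21%. The 7 lower probes belonged to Col1a1 (both its probes), Col1a2, Col3a1, Col4a5, Col20a1 and Col26a1. All 7 were again lower at that p without OV replicate 3 (7 probes, against 8.26% of all probes), with 3 higher (5.86%). All 7 were also among the 7 lower probes with the slide as a block (5.59% of all probes), beside 1 higher (2.04%), and among the 7 lower in the authors' values (10.4%), beside 2 higher (8.47%). Array weights were 0.0489 for OV replicate 3, 0.472 for OV replicate 1, 0.820 for OV replicate 5 and 4.25 for OV replicate 2. The OV mean of the weighted fit therefore rests mainly on OV replicate 2. In that fit 8 collagen probes passed an adjusted p of 0.05 (limma), 7 lower, against 7.54% of all probes, and 1 higher, against 4.07%. Of the 7 lower probes, 6 were lower at an unadjusted p under 0.05 with array weights, without Col4a5, and 5 after normexp, another background correction, without Col1a2 and Col4a5. The groups did not overlap for 5 lower probes, against 4.02% of all tested probes, and for no higher probe, against 2.89%. These became 5 lower (5.43%) and 1 higher (5.02%) without OV replicate 3.

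Single arrays set part of these counts. Without OV replicate 1, 15 collagen probes were lower at an unadjusted p under 0.05, against 12.03% of all probes, and none was higher (5.606%). That array gave the lowest signal for 18 of 56 collagen probes and the highest for 0, whereas OV replicate 5 gave the highest for 15 and the lowest for 0. The count of higher probes was 3 without OV replicate 5, and 0 without OV replicate 2 or without any 1 of OV+E2 replicates 1, 3, 4 and 5.

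**Figure D1:**
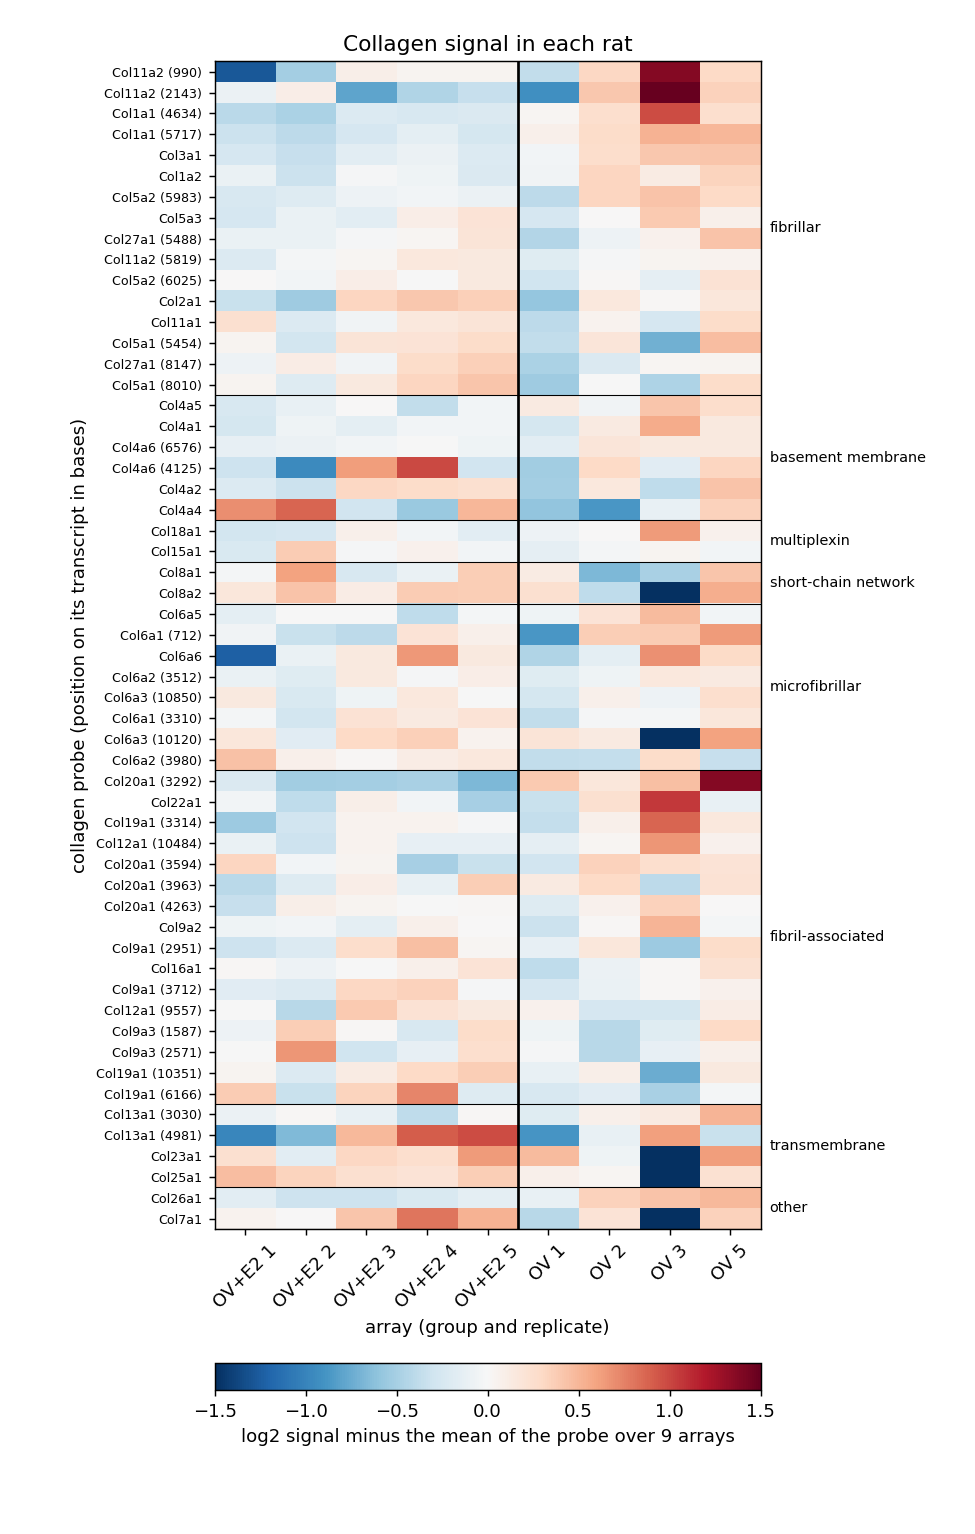
Log2 signal of the 56 tested collagen probes (rows, by kind of collagen, with the position on the transcript where a gene has several) on the 9 arrays (columns, OV+E2 left of OV), as the difference from the mean of the probe, with colours ending at 1.5 above and below. The column of OV replicate 3 holds the highest value of 17 probes, and that of OV replicate 1 the lowest of 18.

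Type I and type III collagen gave lower signals in OV+E2 rats, on all 4 of their probes, and no other fibrillar probe had an unadjusted p under 0.05. Those 4 of 16 tested fibrillar probes stand against 7.17% of all tested probes, and 0 were higher, against 3.21%. None passed an adjusted p of 0.05, and whether these types differ from the other fibrillar types was not tested. Of the 16 probes of 10 genes, 8 were lower and 8 higher, with a median of -0.04, against 0.00113 over all tested probes. Without OV replicate 3 the split was the same, with a median of 0.0062. Leaving out OV replicate 1 gave 7 lower at an unadjusted p under 0.05 (12.03% of all probes) and 0 higher (5.606%), with a median of -0.16. With array weights 6 were lower at that p (17.0%) and 1 higher (14.5%). In that fit 5 passed an adjusted p of 0.05 (limma), as did 7.54% of all probes lower and 4.07% higher.

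Col1a1 and Col1a2 encode the chains of type I collagen, the main fibre of connective tissue. The Col1a1 probe at base 5717 of its transcript (chr10:83639260-83639319) had relative signals of 1.92, 1.82, 2.01, 2.16 and 1.99 in OV+E2 rats 1 to 5, against 2.53, 2.89, 3.44 and 3.36 in OV rats 1, 2, 3 and 5. Every OV+E2 rat was below every OV rat. The difference was -0.62 (SE 0.11, limma adjusted p = 0.251), and -0.56 (SE 0.10, adjusted p = 0.145) without OV replicate 3. It was -0.65 on slide 1 and -0.71 on slide 2. The second Col1a1 probe, at base 4634 (chr10:83638177-83638236), had 1.78, 1.69, 2.04, 2.00 and 2.03 in OV+E2 rats, against 2.41, 2.81, 4.65 and 2.81 in OV rats. Again the groups did not overlap, and OV replicate 3 lay far above the other OV rats. The difference was -0.69 (SE 0.18, limma adjusted p = 0.272), and -0.49 (SE 0.09, adjusted p = 0.145) without that array.

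Col1a2 (chr4:29428206-29428265) had relative signals of 12.5, 10.7, 13.3, 12.8 and 11.6 in OV+E2 rats, against 13.0, 16.8, 14.6 and 17.0 in OV rats. OV replicate 1 lay within the range of the OV+E2 rats, and the other OV rats lay above it. The difference was -0.33 (SE 0.11, limma adjusted p = 0.375), and -0.35 (SE 0.11) without OV replicate 3. Within slides it was -0.35 and -0.44 on slides 1 and 2. After normexp it was -0.25, with an unadjusted p of 0.109 (limma).

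Col3a1 encodes type III collagen, which runs with type I in vessel walls and meninges. Its probe, printed above, had 0.892, 0.835, 0.949, 0.997 and 0.918 in OV+E2 rats, against 1.03, 1.27, 1.40 and 1.41 in OV rats. The groups did not overlap, with OV replicate 1 only just above the highest OV+E2 rat. The difference was -0.47 (SE 0.12, limma adjusted p = 0.252), and -0.42 (SE 0.11) without OV replicate 3. It was -0.50 on slide 1 and -0.56 on slide 2.

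**Figure D2:**
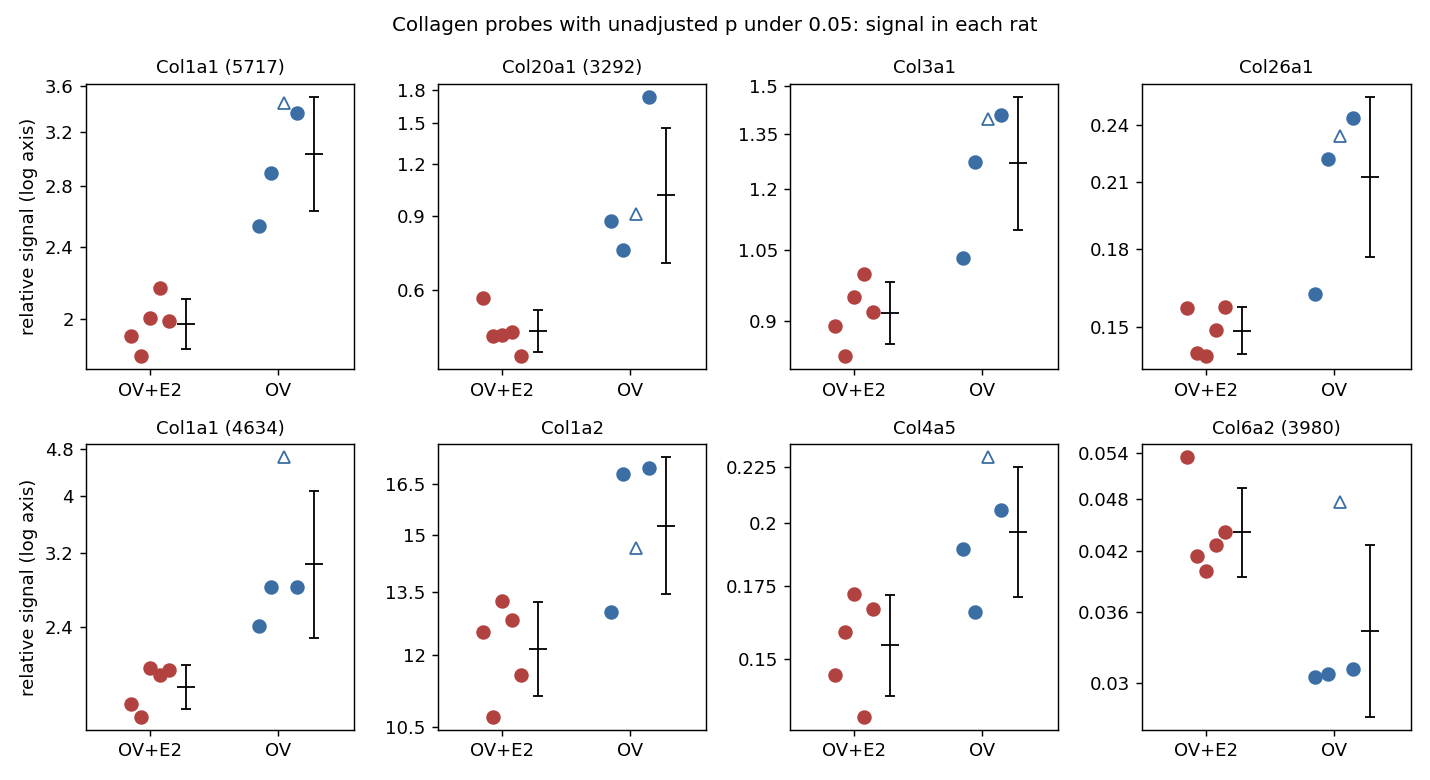
Relative signal (log axis) of the 8 collagen probes with an unadjusted p under 0.05, in each OV+E2 rat (left, red) and OV rat (right, blue), with the mean and SD on the log2 scale beside each group and OV replicate 3 as an open triangle. The number after a gene is the position of the probe on its transcript. The groups do not overlap for both Col1a1 probes, Col20a1, Col3a1 and Col26a1.

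Col5a1, Col5a2 and Col5a3 encode chains of type V collagen, which nucleates type I fibrils. The Col5a1 probes had differences of 0.33 and 0.20 (0.24 and -0.0030 without OV replicate 3), and Col5a3 had -0.10 (0.02). The Col5a2 probes share 18 identical bases of their 60, and yet had differences of -0.29 (SE 0.16) and 0.09 (SE 0.12), or -0.21 and 0.06 without OV replicate 3. On the probe with the lower value OV replicate 1 was at 0.700 and the other OV rats were between 1.12 and 1.23, against 0.778 to 0.888 in OV+E2 rats. Without OV replicate 1 the difference of that probe was -0.48, so this array moved it by over 1.5 times. Col11a2, best known from cartilage, had 3 probes at -0.72, -0.70 and 0.05 (0.07 without OV replicate 3 for the last). The first and second of these moved to -0.40 and -0.25 without OV replicate 3, and to -0.98 and -1.14 without OV replicate 1. Col2a1, Col11a1 and both Col27a1 probes lay between 0.01 and 0.28 (0.03 and 0.34 without OV replicate 3), and the Col27a1 probe at base 8147 then had an unadjusted p of 0.0474 (limma).

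**Figure D3:**
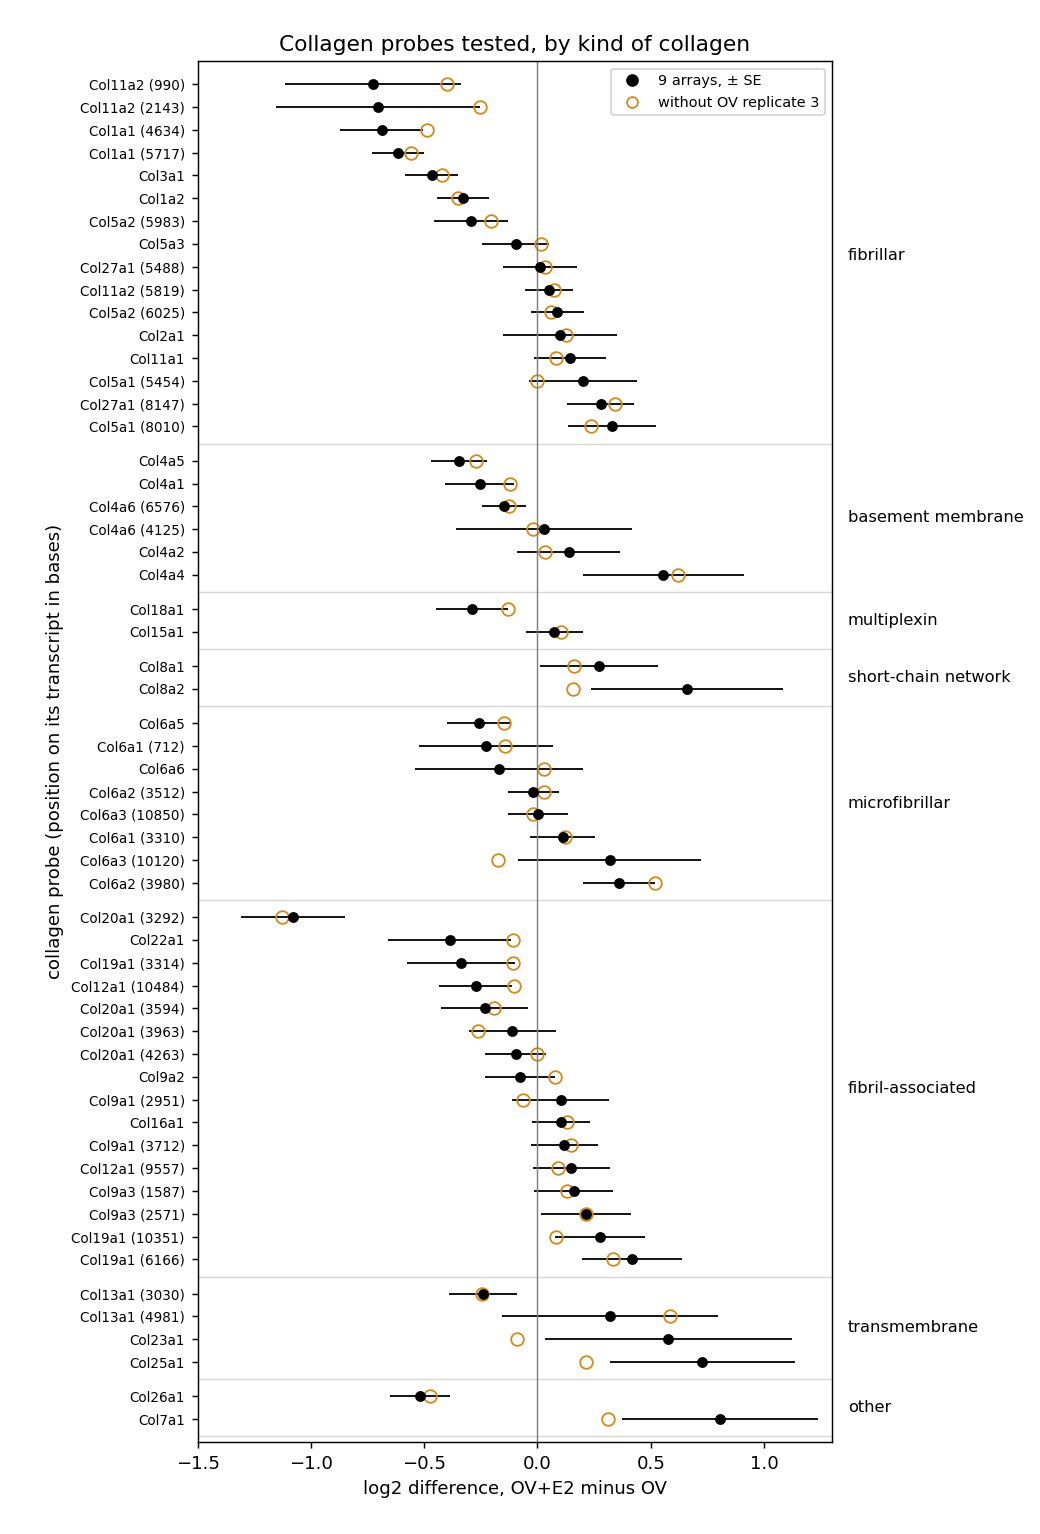
Log2 difference, OV+E2 minus OV, of the 56 tested collagen probes by kind of collagen. Black points are the fit over 9 arrays with bars of 1 SE, and open circles the fit without OV replicate 3. The 7 probes lower at an unadjusted p under 0.05 stay below 0 without that array, while Col23a1, Col25a1, Col7a1 and Col8a2 move to 0.31 or below.

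Basement membrane collagens were measured by 6 probes of 5 genes, 3 lower and 3 higher, with a median of -0.06 (-0.07 without OV replicate 3). Col4a5 encodes a chain of the type IV networks of specialised basement membranes. Its probe had 0.145, 0.159, 0.172, 0.133 and 0.167 in OV+E2 rats, against 0.189, 0.165, 0.230 and 0.205 in OV rats. Only OV replicate 2 overlapped the OV+E2 rats. The difference was -0.35 (SE 0.13, limma adjusted p = 0.398), and -0.27 (SE 0.11) without OV replicate 3. On slides 1 and 2 it was -0.35 and -0.40. With array weights it was -0.17 with an unadjusted p of 0.136, and after normexp -0.37 with an unadjusted p of 0.0777 (limma).

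Col4a1 and Col4a2 encode the chains of the type IV collagen found in most basement membranes, and the genes lie head to head. Their RefSeq starts on GRCr8 are 76 bases apart, and the bases between them hold 1 match to GGGCGG, the core of a GC box, shown in capitals as CCGCCC because it lies on the other strand.
Col4a1 and Col4a2, GRCr8 chr16:84885521-84885596, plus strand: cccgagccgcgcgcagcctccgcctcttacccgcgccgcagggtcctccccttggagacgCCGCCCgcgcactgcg
GGGCGG was found in the 250 bases upstream of 20 of 38 collagen starts of 35 genes in the RefSeq table (52.6%), against 30.5% of 33469 starts in all, searching both strands. CCAAT was found in 31.6% of the collagen starts, against 34.0%, and TATAAA in 10.5%, against 12.9%. The full palindrome of the estrogen response element was in none of the 38, against 0.0239% of all starts. Such matches are a description of the letters, and no match says only that the letters are not in this window. Col12a1, Col14a1, Col1a1, Col22a1, Col25a1, Col2a1, Col3a1, Col6a2 and Col9a3 were not in the table.

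Across that shared start, Col4a1 had relative signals of 0.815, 0.939, 0.883, 0.953 and 0.951 in OV+E2 rats, against 0.818, 1.07, 1.44 and 1.09 in OV rats. OV replicate 1 lay at the level of the lowest OV+E2 rat, and OV replicate 3 was highest. The difference was -0.26 (SE 0.15, limma adjusted p = 0.517) over 9 arrays and -0.12 (SE 0.11) without OV replicate 3. Without OV replicate 1 it was -0.39, over 1.5 times as large. Col4a2 had 0.160, 0.148, 0.229, 0.224 and 0.219 in OV+E2 rats, against 0.130, 0.207, 0.142 and 0.248 in OV rats. Those groups overlapped throughout, with a difference of 0.14 (SE 0.23), and 0.04 without OV replicate 3. Col4a4, one of the probes near background in OV rats, had 0.55 (SE 0.36), 0.62 without OV replicate 3 and -0.30 after normexp. The Col4a6 probes had -0.15 (SE 0.10) and 0.03 (SE 0.39), or -0.13 and -0.02 without OV replicate 3. The second of these is the helix probe printed above, which was well above background on 7 arrays.

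The multiplexins are basement membrane collagens with a helix broken by many interruptions. Col18a1, whose cut end is known as endostatin, had 0.531, 0.538, 0.676, 0.623 and 0.571 in OV+E2 rats, against 0.609, 0.640, 0.998 and 0.671 in OV rats. The high OV value is that of replicate 3. Its difference was -0.29 (SE 0.16, limma adjusted p = 0.514), and -0.13 (SE 0.09) without that array. Col15a1 had 0.07 (SE 0.12), and 0.10 without OV replicate 3. Col8a1, a short-chain collagen of vessel walls, had 0.164, 0.254, 0.141, 0.156 and 0.215 in OV+E2 rats, against 0.182, 0.105, 0.119 and 0.223 in OV rats. The groups overlapped, with a difference of 0.27 (SE 0.26), and 0.16 without OV replicate 3. Col8a2 had 0.66 (SE 0.43), which was 0.16 without that array.

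Type VI collagens form beaded microfilaments around cells and next to basement membranes. Of 8 tested probes of 5 genes, 4 were lower and 4 higher, with a median of -0.0077 (0.0049 without OV replicate 3). Col6a3 (chr9:89965077-89965136) had 2.14, 1.65, 1.85, 2.16 and 1.93 in OV+E2 rats, against 1.61, 2.04, 1.84 and 2.30 in OV rats, a difference of 0.0034 (SE 0.13), and -0.02 without OV replicate 3. The ranges of the groups were nearly the same. Its second tested probe was at 0.32 over 9 arrays and -0.17 without OV replicate 3. Col6a1 had probes at -0.23 and 0.11 (-0.14 and 0.12 without OV replicate 3), the first of which was at -0.56 without OV replicate 1. Col6a5 and Col6a6, whose chains can stand in for that of Col6a3, were at -0.26 and -0.17 (-0.15 and 0.03 without OV replicate 3), and the Col6a6 probe lies near background in OV rats.

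Col6a2 had the single higher probe. The probe at base 3980 (chr20:12462409-12462468) had 0.0534, 0.0415, 0.0399, 0.0427 and 0.0441 in OV+E2 rats, against 0.0305, 0.0307, 0.0477 and 0.0311 in OV rats. It was well above background in all 5 OV+E2 rats and in 1 OV rat, which was replicate 5, so it passed the filter through the group where it is higher. OV replicate 3 had the highest relative signal of the OV rats but was not well above background. The difference was 0.36 (SE 0.16, limma adjusted p = 0.479), and 0.52 (SE 0.10, adjusted p = 0.145) without OV replicate 3, when the groups no longer overlapped and 1 of 3 OV rats was well above background. After normexp it was -0.25 over 9 arrays, so over these arrays the direction changed with the background correction. The Col6a2 probe at base 3512 had 1.56, 1.47, 1.85, 1.65 and 1.79 in OV+E2 rats, against 1.47, 1.59, 1.86 and 1.84 in OV rats. Those groups overlapped, with a difference of -0.02 (SE 0.11), and 0.03 without OV replicate 3. The files pair the probes with different transcripts of the gene, and which transcripts each detects was not tested.

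Fibril-associated collagens bind to the surface of fibrils through short interrupted helices. Of 16 tested probes of 8 genes, 8 were lower and 8 higher, with a median of 0.01 (0.04 without OV replicate 3). Col20a1, a little-studied member, had 4 tested probes. The one at base 3292, printed above, had 0.574, 0.466, 0.469, 0.478 and 0.418 in OV+E2 rats, against 0.877, 0.749, 0.913 and 1.74 in OV rats. Every OV+E2 rat was below every OV rat, and OV replicate 5 lay far above the other OV rats. The difference was -1.08 (SE 0.23, limma adjusted p = 0.251), and -1.13 (SE 0.25, adjusted p = 0.164) without OV replicate 3. It was -0.71 on slide 1 and -1.94 on slide 2, where OV replicate 5 is the only OV array.

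The other Col20a1 probes lie downstream of it, at bases 3594, 3963 and 4263, the first of them the helix probe printed above. Their differences were -0.23 (SE 0.19), -0.11 (SE 0.19) and -0.10 (SE 0.14), or -0.19, -0.26 and -0.00063 without OV replicate 3. The probe at base 4263 had 0.527, 0.713, 0.690, 0.672 and 0.678 in OV+E2 rats, against 0.587, 0.704, 0.851 and 0.674 in OV rats. Those groups overlapped, and whether the probes of the gene differ from each other was not tested.

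Col16a1, found at the edges of fibrils and basement membranes, had 2.91, 2.73, 2.86, 3.03 and 3.32 in OV+E2 rats, against 2.21, 2.69, 2.90 and 3.35 in OV rats. The groups overlapped, with a difference of 0.10 (SE 0.13, limma adjusted p = 0.676), and 0.13 without OV replicate 3. Col19a1, which mouse work has placed in neurons, had probes at -0.34, 0.28 and 0.42 over 9 arrays and -0.11, 0.08 and 0.33 without OV replicate 3. The last of these probes was well above background in 4 OV+E2 rats and 1 OV rat, and was at -0.31 after normexp. Col12a1, which binds type I fibrils, had probes at -0.27 and 0.15 (-0.10 and 0.09 without OV replicate 3). The type IX genes Col9a1, Col9a2 and Col9a3 lay between -0.08 and 0.22 (-0.06 and 0.21 without OV replicate 3), and Col22a1 was at -0.39 (-0.11 without OV replicate 3).

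Transmembrane collagens keep a membrane anchor and shed their helix. Col25a1, a neuronal collagen first isolated from the amyloid plaques of Alzheimer's disease, had 2.28, 2.08, 1.95, 1.91 and 2.13 in OV+E2 rats, against 1.73, 1.68, 0.428 and 1.94 in OV rats. The value of OV replicate 3 lay far below all others, and OV replicate 5 lay among the OV+E2 rats. The difference was 0.73 (SE 0.41, limma adjusted p = 0.514) over 9 arrays and 0.21 (SE 0.08, adjusted p = 0.300) without OV replicate 3. It was 0.04 on slide 2. Col23a1 had 0.58 over 9 arrays and -0.09 without that array, and the Col13a1 probes had -0.24 and 0.32 (-0.24 and 0.59 without it). Over these 4 probes the median was 0.45, and 0.06 without OV replicate 3.

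Col26a1, known from the testis and ovary, had 0.157, 0.141, 0.140, 0.149 and 0.157 in OV+E2 rats, against 0.162, 0.222, 0.234 and 0.244 in OV rats. The groups did not overlap, although OV replicate 1 was just above the OV+E2 rats. The difference was -0.52 (SE 0.13, limma adjusted p = 0.261), and -0.47 (SE 0.13) without OV replicate 3. On slides 1 and 2 it was -0.45 and -0.72. Col7a1, the collagen of anchoring fibrils, had 0.80 (SE 0.43), and 0.31 without OV replicate 3.

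**Figure D4:**
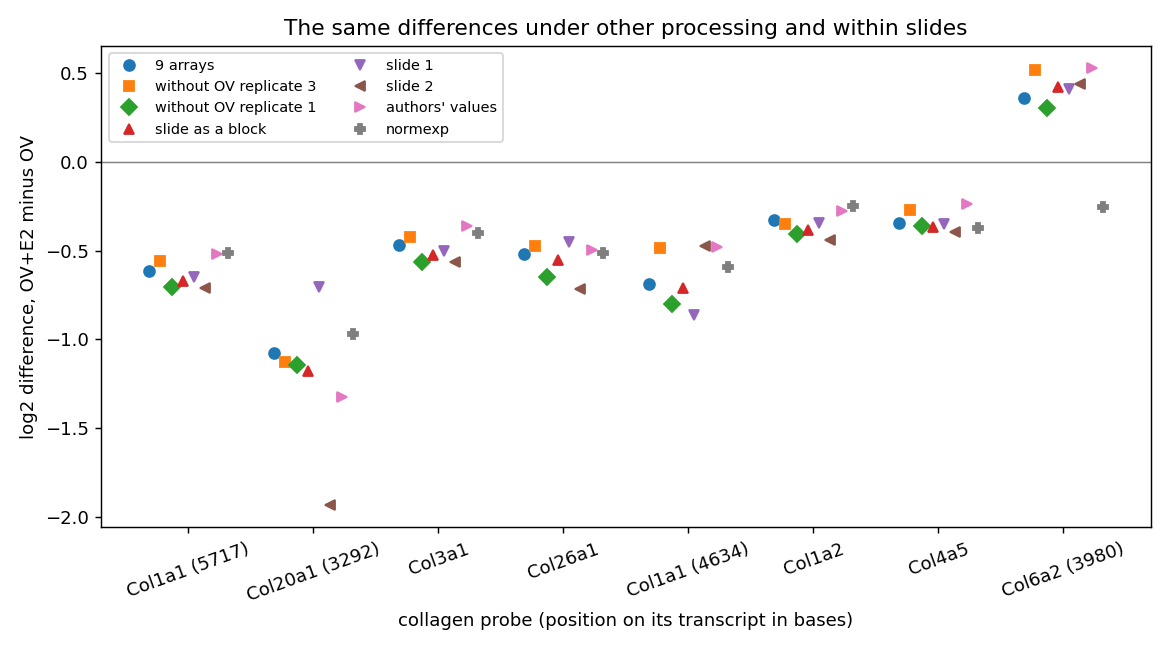
Log2 difference, OV+E2 minus OV, of the 8 collagen probes with an unadjusted p under 0.05, over 9 arrays, without OV replicate 3 or 1, with the slide as a block, within each slide, in the authors' values and after normexp. The 7 lower probes are below 0 in each of these, and the Col6a2 probe, near background in OV rats, is below 0 only after normexp.

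Over all 56 tested collagen probes, 26 were lower and 30 higher in OV+E2 rats, with a median of 0.02, against 0.00113 over all tested probes. Without OV replicate 3 the counts were 28 and 28, with a median of 0.0074 against 0.0096. Without that array 10 of the 56 changed sign, and 32 had the same sign on both slides.

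Genes that make, cut and hold collagens were set beside the collagens, 1 probe a gene. Of 31 tested genes for collagen modification, folding, secretion and cross-linking, 1 was lower at an unadjusted p under 0.05, against 7.17% of all tested probes, and 0 were higher, against 3.21%. The median was 0.09 (-0.0024 without OV replicate 3). The lower one was Pcolce, which enhances the trimming of fibrillar procollagens, at -0.54 (SE 0.18, limma adjusted p = 0.361), and -0.33 without that array. P3h4, P4ha2 and Adamts14 followed at -0.42, 0.27 and -0.27, or -0.20, 0.12 and -0.22 without it. Counts without that array were 2 lower (8.26% of all probes) and 1 higher (5.86%). In the authors' values they were 2 lower (10.4%) and 3 higher (8.47%).

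Of 21 tested proteases and inhibitors that bear on collagen, 3 were lower at that p, against 7.17% of all tested probes, and 1 higher, against 3.21%. The median was -0.14, and -0.02 without OV replicate 3. In the authors' values 3 were lower (10.4% of all probes) and 3 higher (8.47%), with a median of 0.0099. The 4 over 9 arrays were the stromelysin Mmp3 at -0.50 (SE 0.14), the membrane protease Mmp15 at -1.05 (SE 0.36), the plasmin precursor Plg at -0.44 (SE 0.15) and the inhibitor Timp4 at 0.28 (SE 0.12). They were at -0.42, -0.63, -0.35 and 0.18 without OV replicate 3, the last with an unadjusted p of 0.0589 (limma). No adjusted p passed 0.05, the smallest being 0.282 (limma).

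Of 9 tested collagen receptors none had an unadjusted p under 0.05 over 9 arrays. Ddr1, a receptor kinase for collagens, was at -1.02 (SE 0.57), while Ddr2, Cd44 and Adgrg1 were at 0.09, -0.17 and -0.04. These genes were at -0.30, 0.06, 0.09 and -0.02 without OV replicate 3. In the authors' values Ddr1, at -0.37, was the 1 receptor lower at that p (10.4% of all probes), and 0 were higher (8.47%). Of 16 genes of the TGF-beta axis, which drives collagen synthesis in fibroblasts, 1 was lower, against 7.17% of all tested probes, and 0 higher, against 3.21%. The lower one was Ltbp2 at -0.48 (SE 0.15), and -0.45 without OV replicate 3. Ccn2, Thbs1 and Tgfb3 were at 0.70, -0.50 and 0.60 (0.32, -0.44 and 0.15 without that array). Without it 1 gene was lower (8.26% of all probes) and 1 higher (5.86%), which was Ccn2 (unadjusted p = 0.0167, limma). The authors' values also had 1 lower (10.4%) and 1 higher (8.47%), again Ccn2, at 0.32.

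Of 13 partners in the basement membrane, none had an unadjusted p under 0.05, and perlecan, Hspg2, was at -0.52 (-0.19 without OV replicate 3). In the fit without that array Hspg2 was the 1 lower gene (8.26% of all probes), with an unadjusted p of 0.0457 (limma). Lamc1, Agrn and Lamc3 were at -0.12, 0.15 and -0.17, or -0.08, 0.04 and 0.02 without that array. Of 16 partners of fibrils, 2 were lower at that p, against 7.17% of all tested probes, and 1 higher, against 3.21%. Without OV replicate 3, 6 were lower (8.26% of all probes) and 1 higher (5.86%), and in the authors' values 1 was lower (10.4%) and 2 higher (8.47%). The lower gene in the authors' values was Fbln2, at -0.35, which was at -0.29 without OV replicate 3 and -0.19 over 9 arrays. Elastin, Eln, was at -0.49 (SE 0.17) and the fibril proteoglycan Fmod at -0.32 (SE 0.13), while fibronectin, Fn1, was at 0.23 (SE 0.09). Their values were -0.32, -0.18 and 0.19 without OV replicate 3. Bgn was at -0.45, and -0.22 without that array.

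RNA of whole dissected tissue was measured, so fewer cells of a type and less RNA per cell cannot be told apart. The markers of meninges and fibroblasts, the cells known to make type I and III collagen, summed to relative signals of 60.7 to 66.4 in OV+E2 rats, against 62.7 to 79.7 in OV rats (62.7 to 74.8 without OV replicate 3). Of 17 tested markers, 2 were lower at an unadjusted p under 0.05, against 7.17% of all tested probes, and 0 higher, against 3.21%, with a median of -0.04. Without OV replicate 3, 3 were lower (8.26% of all probes), and in the authors' values 0 were (10.4%). The 2 over 9 arrays were Fmod at -0.32 and Igf2 at -0.29, while Islr and Pdgfra were at 0.40 and 0.15. Igf2 was at -0.19, Islr at 0.18 and Pdgfra at 0.12 without OV replicate 3. The fibroblast proteoglycans Dcn and Lum were at 0.20 and 0.13 over 9 arrays. Both had the opposite sign without OV replicate 3, Dcn at -0.23 (unadjusted p = 0.0430, limma) and Lum at -0.23 (unadjusted p = 0.0358), and in the authors' values they were at -0.10 and -0.14. Fmod, Dcn, Lum, Ogn and Dpt stand in this list and among the fibril partners, and Pdgfra stands also among the oligodendrocyte markers.

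Endothelial markers summed to 23.7 to 26.7 in OV+E2 rats, against 26.5 to 39.6 in OV rats (26.5 to 28.1 without OV replicate 3). Of 13, 3 were lower (Egfl7 at -0.38, Slco1a4 at -0.37, Vwf at -0.60), against 7.17% of all tested probes, and Eng was at 0.35. Leaving out OV replicate 3 put these genes at -0.27, -0.28, -0.32 and 0.17, with 4 of 13 lower (8.26%). Among 11 markers of pericytes and smooth muscle, 1 was lower (Des at -0.61), against the same 7.17%, while Abcc9, Anpep and Notch3 were at 0.30, -0.46 and -0.26. None was lower without OV replicate 3 (0, against 8.26% of all probes), with Des at -0.39, Abcc9 at 0.15, Anpep at -0.30 and Notch3 at -0.05.

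Blood markers summed to at most 140.1 in OV+E2 rats, against 150.3 to 161.1 in OV rats, and the groups did not overlap. Most of that sum was Hba-a1, with mean log2 relative signals of 6.89 in OV+E2 and 7.22 in OV rats. Hbb had 1.89 and 1.79, and every other marker had a negative mean in both groups. The difference of Hbb was 0.11, and -0.19 without OV replicate 3. S100a8 was dim and well above background on 6 arrays. At an unadjusted p under 0.05, 5 of 7 were lower, against 7.17% of all tested probes, with S100a8 at -1.15, Slc4a1 at -0.68, Hba-a1 at -0.33 and Ahsp at -0.22. In the fit without OV replicate 3, 6 were lower (8.26%), and these genes were at -1.08, -0.43, -0.33 and -0.16. In the authors' values 0 of 7 were lower at that p (10.4%), with these genes at -0.61, -0.29, -0.13 and -0.13. Microglial markers summed to 32.6 to 37.2 in OV+E2 rats, against 39.2 to 54.9 in OV rats (39.2 to 45.4 without OV replicate 3), without overlap. Of 8, 4 were lower (Itgam at -0.58, Aif1 at -0.39, Cd68 at -0.35, Cx3cr1 at -0.74), against 7.17% of all tested probes. Leaving out OV replicate 3 gave 3 lower (8.26%), with Itgam at -0.53, Aif1 at -0.29, Cd68 at -0.21 and Cx3cr1 at -0.47 (unadjusted p = 0.0707, limma). In the authors' values 5 were lower (10.4%). The microglial and blood sums were lower in every OV+E2 rat than in any OV rat. So were the signals of Col1a1, Col3a1, Col20a1 at base 3292 and Col26a1, and those of 4.02% of all tested probes. Whether microglia or blood had a part in the collagen results was not tested.

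Choroid plexus markers, led by Ttr, summed to 258.0 to 489.4 in OV+E2 rats, against 13.9 to 757.7 in OV rats, with 13.9 in replicate 2 and 757.7 in replicate 3. OV replicates 1 and 5, at 349.2 and 312.3, lay within the range of the OV+E2 rats, so only OV replicate 2 lay below it. All 10 had positive differences, none at an unadjusted p under 0.05, with Otx2 at 0.81, Sostdc1 at 1.36, Kl at 0.90 and Kcnj13 at 0.41 (0.96, 1.86, 1.35 and 0.60 without OV replicate 3). On slide 2, which does not hold OV replicate 2, these genes were at -0.06, 0.40, 0.21 and 0.09. Of 9 oligodendrocyte markers 2 were lower (Gpr17 at -0.89, Mobp at -0.58), against 7.17% of all tested probes, with Mog at -0.34 and Mbp at -0.65. Their sum reached 510.2 to 660.9 in OV+E2 rats, against 604.7 to 763.1 in OV replicates 1, 2 and 5 and 1528 in OV replicate 3. Without OV replicate 3, 2 were again lower (8.26%), Gpr17 at -0.44 and Mbp at -0.28, while Mobp at -0.35 had an unadjusted p of 0.0979 (limma) and Mog was at -0.31.

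Of 8 astrocyte markers none passed that p (Slc1a2 at -0.46, S100b at -0.21, Aqp4 at -0.13, Slc4a4 at 0.24). In the fit without OV replicate 3, 2 were lower (8.26%), Aqp4 at -0.19 and Gfap at -0.31, which was at -0.01 over 9 arrays. Slc1a2, S100b and Slc4a4 were at -0.18, -0.08 and 0.03 in that fit. The same 2 genes were lower in the authors' values (10.4%), Aqp4 at -0.17 and Gfap at -0.29. Of 16 neuronal markers 1 was higher, against 3.21% of all tested probes. It was Slc17a7 at 0.30, while Slc17a6, Prkcd and Lhx6 were at 0.31, 0.85 and -0.14. Leaving out OV replicate 3 gave 2 higher (5.86%), and these genes were at 0.29, 0.24, 0.91 and -0.08. None of the genes named from these lists passed an adjusted p of 0.05 (limma) over 9 arrays, while in the authors' values Gpr17 did, at -0.42 (adjusted p = 0.0428).

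**Figure D5:**
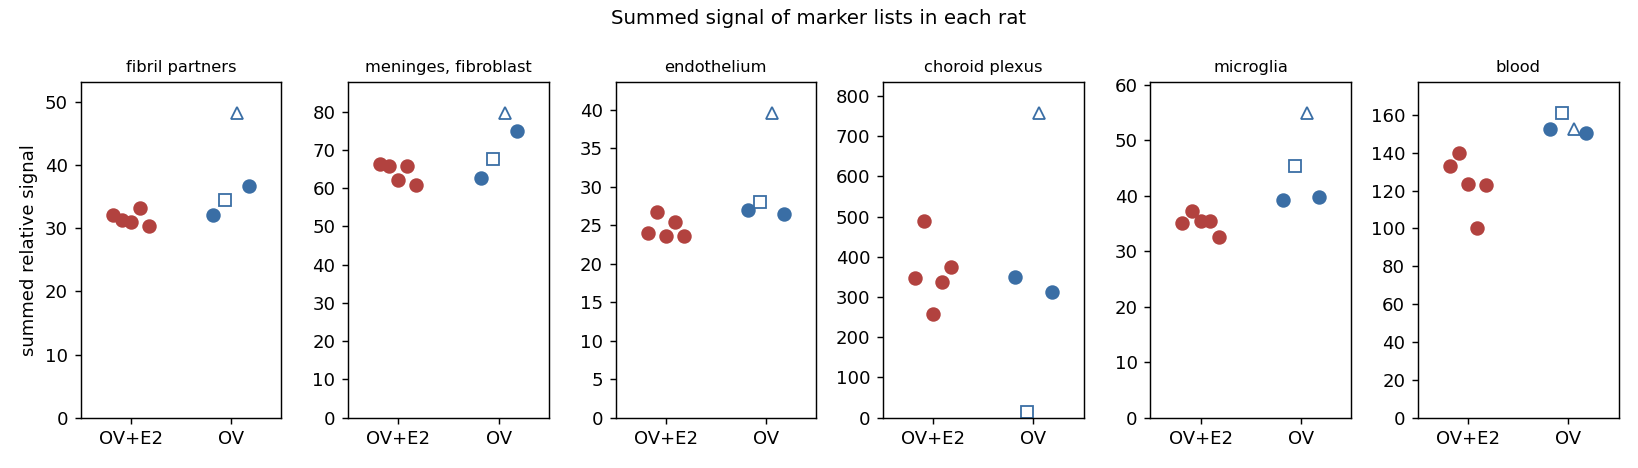
Summed relative signal of the fibril partners and of markers of 5 cell types in each OV+E2 rat (left, red) and OV rat (right, blue), with OV replicate 2 as an open square and OV replicate 3 as an open triangle. The groups do not overlap for microglia and blood, and OV replicate 2 is at 13.9 for the choroid plexus.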

How the data were processed

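Signals were measured on Agilent 1-colour arrays. The processed signal of a spot is a background-subtracted intensity, as deposited by the authors, extracted with Feature Extraction 10.7.3.1 (protocol GE1_107_Sep09) per the file headers, while the submitters' processing notes name version 9.1. The authors' own table also holds intensities, with no scaling stated in the headers or labels. Control and outlier spots were left out, the spots of a probe were averaged as log2 values, and the array's 75th percentile was subtracted. Spots not well above background are those so marked in the deposited files. Probes with a signal well above background on 4 or more of the 9 arrays were tested with limma 3.58.1 in R 4.3.3, by lmFit and eBayes with Benjamini-Hochberg adjustment, after the code was tested on simulated data. The number of arrays limits the precision. Each array is 1 rat, so p-values measure the spread between rats.

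The collagens and all lists were chosen with earlier results of these data known. Values in every rat are given for members with an unadjusted p under 0.05, for members whose probes then go opposite ways, and for the member of highest signal of each kind of collagen. Of the other lists, up to 4 genes of smallest p are named, each by its probe of highest signal. Probes of other lists named beyond these (Ttr, Dcn, Lum, Hbb, Gfap, Fbln2, and some collagen values by rat) were chosen after their values were seen. Alternatives were quantile and median scaling, normexp (offset 50), other filters, the authors' values, the slide or replicate number as a block, array weights, single slides and each array left out. Same-numbered rats of the groups correlated in their deviations at 0.170, -0.0761, -0.0110 and 0.105, and differently numbered rats at -0.290 to 0.122. So few values cannot tell whether the numbers pair the rats. Probe coordinates are rn4. The place of each probe in its transcript (coding or not) was not analysed here.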

Additional observations from a re-analysis of the deposited data

Results flagged for a closer look

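In 5 of 112 groups of arrays (each tested collagen probe in each group), 1 rat lay apart from the rest of its group by Dixon's test, which chance alone passes in about 1 of 20 groups. OV replicate 3 was apart for Col6a2 at base 3980, at a relative signal of 0.0477, above the other OV rats, and for Col25a1, at 0.428, below them. OV replicate 1 was apart and low for Col4a6 at base 6576 (0.491) and for Col5a2 at base 5983 (0.700). OV+E2 replicate 1 was apart and low for Col20a1 at base 4263 (0.527). The cause of these values was not tested.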

How the results depend on the processing

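No collagen probe passed an adjusted p of 0.05 (limma) under any alternative except array weights, with 8 probes, and slide 2 alone, with 2 (Col20a1 at base 3292 and Col1a1 at base 5717), where the lone OV rat is assumed to vary like the OV+E2 rats and 540 of 30215 probes were lower at that threshold. Array weights, under which the OV mean rests mainly on OV replicate 2, called 7.54% of all probes lower and 4.07% higher. The count of collagen probes lower at an unadjusted p under 0.05 was 7, and became 12 with no filter on dim probes (counted over all 81 collagen probes, against 7.97% of all probes), 12 with array weights (17.0%), 3 on slide 1 (1.17%) and 11 on slide 2 (11.1%). Leaving out each array in turn gave 5 to 15, where the share of all probes ran from 5.07% to 12.03%. The count of higher probes was 1, and became 4 with median scaling (4.62% of all probes), 0 with normexp (2.73%), 0 with no filter (1.57%), 0 where only probes above background on every array were kept (3.37%), 2 in the authors' values (8.47%), 3 in those values without OV replicate 3 (5.88%), 2 with the slide block without that array (6.77%), 0 with the replicate block (1.43%), 7 with array weights (14.5%) and 2 on slide 2 (9.17%). Leaving out each array gave 0 to 3, where the share of all probes ran from 1.62% to 5.86%. The median difference of the collagens, 0.02, became -0.22 with normexp, while without OV replicate 3 normexp, an alternative chosen after seeing the data, gave 0.02. It lay between -0.08 and 0.10 with each array left out. That of the fibrillar probes was -0.26 on slide 1, and -0.16 to 0.0062 with each array left out. That of the basement membrane probes was -0.26 with no filter, and -0.19 to 0.04 with each array left out. Median scaling moved the median of all tested probes to 0.11 and normexp to -0.11, and 21 of 56 collagen probes changed sign after normexp. After normexp 45 of 56 were lower over 9 arrays, and 27 without OV replicate 3. With the replicate block, 6 collagen probes were lower at an unadjusted p under 0.05 (5.08% of all probes), 5 of them among the 7. Whether the numbers pair the rats is not known. The cause of these shifts was not tested. Dim probes such as Col6a2 at base 3980 lie near background, which limits them.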
